A study of Mus musculus with 12 samples.

Results

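A set of 10 genes of SREBP control and fatty acid synthesis was described in mouse cornea: Srebf1, Srebf2, Insig1, Acss2, Acly, Fasn, Scd1, Scd2, Elovl6 and Me1. They were chosen by name, with earlier results of these data known. Each was read on the brightest of its probe sets (the array features that report 1 transcript) with a single gene symbol in the platform table. All 10 were found among 18194 genes with such a probe set, through 24 of the 45101 probe sets on the array. RNA of whole corneas was hybridised to 12 Affymetrix arrays, 1 per sample, all from strain C57BL/6J. The 8 intact corneas comprised 2 samples each of wild type (WT), ApoE-/- (ApoeKO), Dscr-1-/- (Dscr1KO) and the double null mutant of both genes (double KO). The 4 sutured corneas had 1 array each: WT on day 5 and on day 7 after suturing, Dscr-1-/- on day 5, and Dscr-1 Tg, a Dscr1 transgenic mouse, on day 7. Dscr1, now called Rcan1, encodes a protein that binds and modulates calcineurin, and ApoE is a protein of lipoprotein particles. For the extent of the deletions, the promoter of the transgene, sex, age and pooling, details were not given in the sources used here. According to its title, the series concerns loss of Dscr1, cholesterol metabolism and opacity of the cornea, and the comparisons below ask how the SREBP genes differ with loss of Dscr1, loss of Apoe and suturing.

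SREBPs are transcription factors held in the endoplasmic reticulum membrane as precursors, bound to the escort protein SCAP. When sterols are low, the complex moves to the Golgi, where proteases release the active part; INSIG proteins retain the complex when sterols are high, and Insig1 is itself an SREBP target. SREBP1, from Srebf1, acts mainly on fatty acid synthesis, and SREBP2, from Srebf2, mainly on cholesterol synthesis and uptake. Downstream, ACLY and ACSS2 make acetyl-CoA from citrate and from acetate, fatty acid synthase (Fasn) builds palmitate, ELOVL6 lengthens it, and the stearoyl-CoA desaturases Scd1 and Scd2 introduce a double bond. Malic enzyme (Me1) supplies the NADPH that the synthesis consumes. The corneal surface is covered by a lipid-bearing tear film and a non-keratinised epithelium that renews itself throughout life.

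The start-site sequences of the genes on which the results turn are shown first, as the 250 bases before the start site of transcription in RefSeq (GRCm38.p6), read 5′ to 3′ on the strand of the gene. Of the 10 genes, 8 matched RefSeq promoter entries, with 11 start sites in all. Capitals mark the E-box CACGTG, which SREBP1 and other basic helix-loop-helix factors can bind, and the CCAAT box, which NF-Y, a partner of SREBPs, binds; both were searched on either strand, and matches can overlap. Insig1 is shown as the sterol-regulated member, Acss2 as the member with the largest fall, Fasn as the member that did not pass a test, and Me1 as the member that rose.
Insig1, chr5:28071162-28071411, plus strand: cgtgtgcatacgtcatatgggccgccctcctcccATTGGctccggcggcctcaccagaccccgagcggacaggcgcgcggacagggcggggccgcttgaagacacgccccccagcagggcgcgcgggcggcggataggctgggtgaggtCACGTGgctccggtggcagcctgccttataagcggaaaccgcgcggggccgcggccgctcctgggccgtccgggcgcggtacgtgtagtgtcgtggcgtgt
Acss2, chr2:155517793-155518042, plus strand: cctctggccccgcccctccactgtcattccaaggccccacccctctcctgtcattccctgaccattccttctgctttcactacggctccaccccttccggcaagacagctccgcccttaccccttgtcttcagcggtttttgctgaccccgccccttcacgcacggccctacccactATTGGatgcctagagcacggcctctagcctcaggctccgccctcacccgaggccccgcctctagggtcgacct
Fasn, chr11:120824548-120824797, minus strand: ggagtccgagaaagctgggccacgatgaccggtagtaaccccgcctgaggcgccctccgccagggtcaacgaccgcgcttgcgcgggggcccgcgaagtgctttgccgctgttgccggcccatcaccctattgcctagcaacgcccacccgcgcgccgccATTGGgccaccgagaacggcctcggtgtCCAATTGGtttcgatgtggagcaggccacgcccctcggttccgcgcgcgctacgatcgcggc
Me1, chr9:86687278-86687527, minus strand, 1 of 2 start sites: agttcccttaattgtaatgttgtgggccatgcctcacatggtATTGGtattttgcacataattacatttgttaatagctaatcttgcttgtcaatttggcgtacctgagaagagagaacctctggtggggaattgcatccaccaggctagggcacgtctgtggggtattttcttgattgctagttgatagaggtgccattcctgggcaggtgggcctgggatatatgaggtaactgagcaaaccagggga

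A CCAAT box was present in 7 of the 11 windows of these genes, belonging to 6 genes, against 33.8% of 32851 windows of the same length over all genes. The Insig1 window held the E-box, 101 bases before the start site, and it was the only 1 of the 11 windows with that motif, which 6.02% of all windows hold. The Fasn window held 3 CCAAT matches, of which 2 overlap. The GC box GGGCGG, bound by Sp1, was found in 7 of the 11 windows against 32.7% of all windows. The Me1 window shown holds a CCAAT box and no GC box, while the other Me1 window holds 3 GC boxes and no CCAAT box. TCACNCCAC, the core of the sterol regulatory element, was found in 0 of the 11 windows and in 1.05% of all windows. TGACNNNGC, the antioxidant response element, was found in the Acss2 window alone among the 11, and in 10.2% of all windows. A match is a run of letters, not a bound site, and windows of this length leave out more distant elements.

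Several measurements bear on every comparison below. The median intensity of an array ranged from 15.6 to 21.1. Rcan1 read between 581.3 and 668.2 in intact corneas that carry Dscr1 and between 331.7 and 477.5 in intact corneas labelled null, with the position of its probe set relative to the deletion not given in the sources used here. Apoe read 849.3 in the library labelled ApoeKO replicate 1 against 7.5 in ApoeKO replicate 2, and the labels of Dscr1KO replicate 2 name both genotypes, so results are also given without these libraries. Xist, transcribed from the silenced X chromosome, was at 4104 to 5385.2 in ApoeKO, Dscr1KO and double KO replicate 1, and 19.6 or less in the other 7 arrays. Markers of corneal epithelium summed to between 29745.1 and 45710.1 on all arrays, with none of the 8 at or under 10, so the labelled tissue carries its markers. The 8 intact arrays, 2 per genotype, are called biological replicates in the labels. Changes are differences in log2(intensity + 3.6) with their standard errors (SE), and a gene is said to rise or fall where limma gave an adjusted p under 0.05 over all 12711 genes tested. Levels are not compared between genes, since probe sets differ in brightness.

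Loss of Dscr1 was examined in intact corneas both with and without Apoe. In the average of both comparisons, which sets 4 Dscr1-null against 4 Dscr1-carrying arrays, 9 of the 10 genes passed the test: 8 fell and Me1 rose. Over all 12711 genes, 31.5% passed in this average, 15.3% as falls and 16.2% as rises. The median change of the 10 genes was -0.78, against -0.02 over all genes tested. Since the set was chosen with earlier results known, the shares given here describe it and are not an independent test. The genes that fell were the regulators Srebf1, Srebf2 and Insig1, the acetyl-CoA enzymes Acss2 and Acly, the desaturases Scd1 and Scd2 and the elongase Elovl6. Fasn did not pass, and neither did Acaca, the acetyl-CoA carboxylase that makes malonyl-CoA for it (-0.03 ± 0.14, adjusted p = 0.879). For the same 9 genes the 4 null arrays did not overlap the 4 carrying arrays, 8 of them lower and Me1 higher, a separation that 34.5% of all genes showed (17.8% lower and 16.7% higher). In whole tissue, fewer cells of a type and less RNA per cell cannot be told apart.

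**Figure D1:**
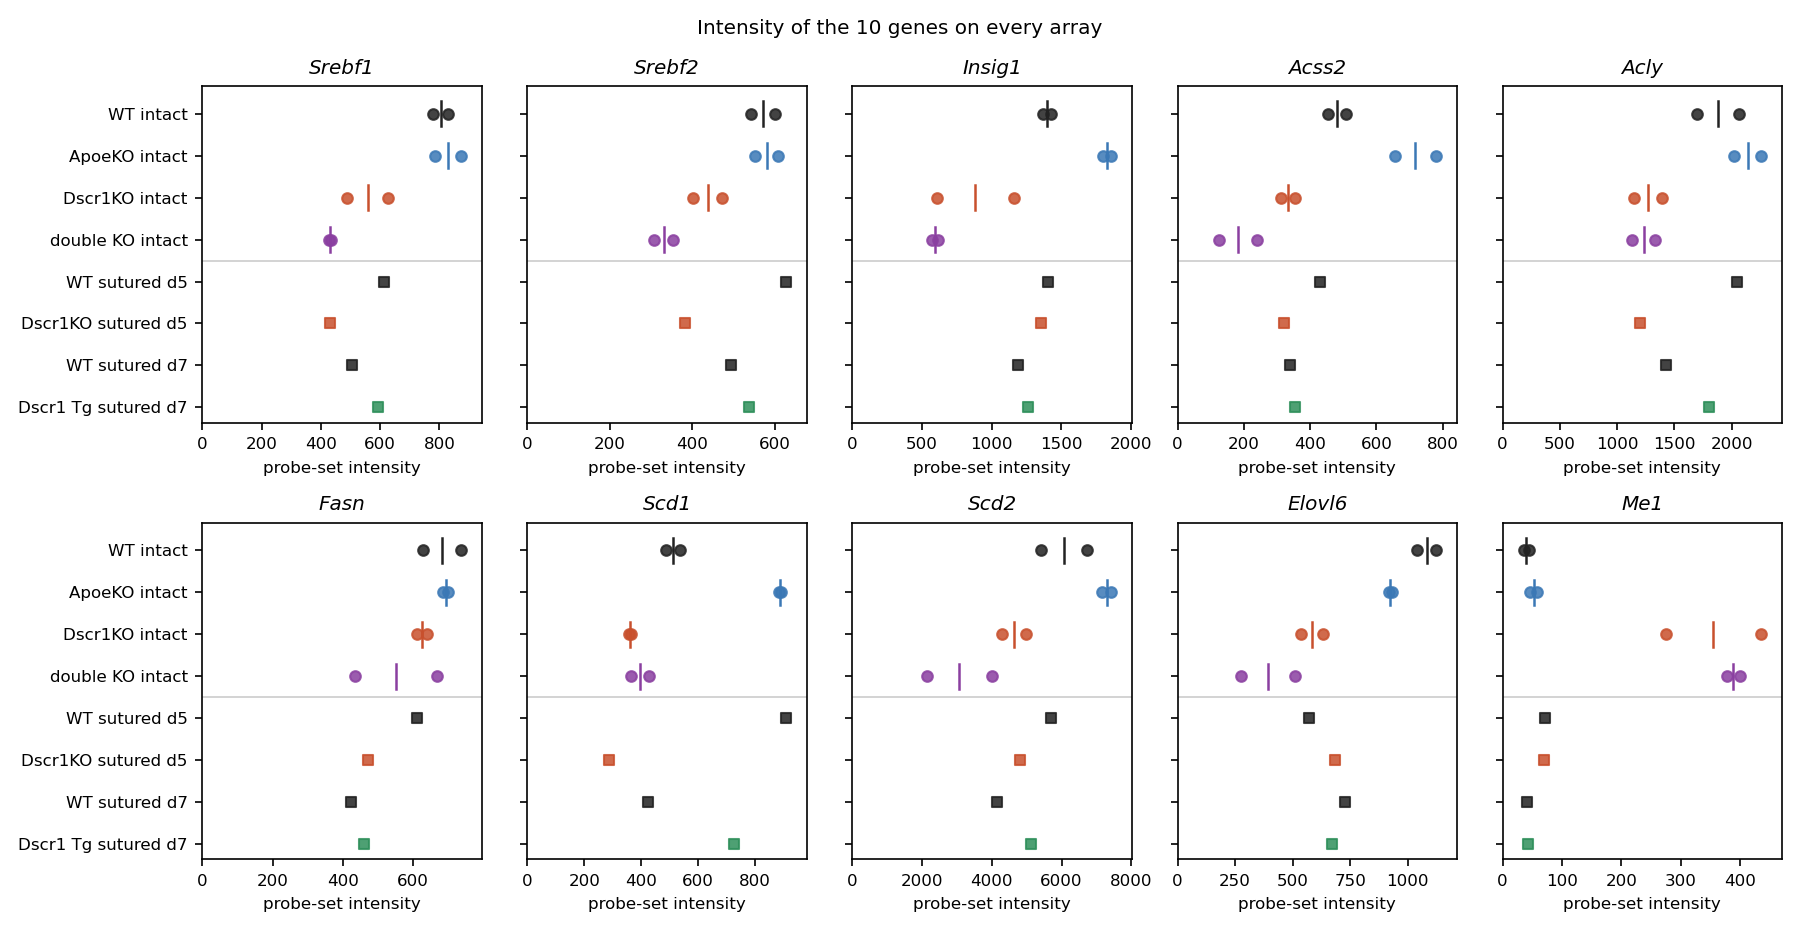
Probe-set intensity (linear axis from 0, arbitrary units) of each of the 10 genes on every array, by group; circles are intact and squares sutured corneas, each point is 1 array, and the short vertical line is the mean of 2 arrays. Me1 lies between 274.6 and 436.1 in intact Dscr1KO and double KO and at 71.6 or less in every other group, while 8 of the other genes are lower in the 4 intact Dscr1-null arrays than in the 4 other intact arrays.

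Of the regulators, Srebf1 read 830.4 and 780.1 in WT and 872.9 and 784.9 in ApoeKO. It was at 489 and 627.2 in Dscr1KO and at 435.6 and 428.6 in double KO. The null arrays were all below the carrying arrays, with Dscr1KO replicate 2 the highest of them. Srebf1 fell by 0.73 ± 0.12 in the average (adjusted p = 0.00312), to 0.601 of the level with Dscr1. Srebf2 read 601.1 and 543.6 in WT and 552.8 and 609.2 in ApoeKO. It was at 402.5 and 471.8 in Dscr1KO and at 308.5 and 353.3 in double KO, again without overlap. It fell by 0.60 ± 0.11 (adjusted p = 0.00663).

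Insig1, which retains the SREBP complex in the endoplasmic reticulum, read 1425.8 and 1369.7 in WT and 1799.1 and 1859.3 in ApoeKO. It read 1157.8 and 608.1 in the Dscr1KO arrays and 575 and 618.5 in double KO. The first Dscr1KO array was nearer to WT than to the other null arrays, so the replicates of this group differed more than those of any other intact group for this gene. Insig1 fell by 1.17 ± 0.19 in the average (adjusted p = 0.0034). Of the 2 comparisons that make it up, it passed in double KO against ApoeKO (-1.61 ± 0.27, adjusted p = 0.00698) and did not pass in Dscr1KO against WT (-0.73 ± 0.27, adjusted p = 0.117). Without Dscr1KO replicate 1 the latter was -1.20. The Dscr1KO group is then replicate 2 alone, whose labels name both genotypes, with its spread taken from the other groups.

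Of the acetyl-CoA enzymes, Acss2 read 453.7 and 508.3 in WT and 780.3 and 654.5 in ApoeKO. It was at 311.3 and 354.5 in Dscr1KO and at 126.1 and 238.6 in double KO. The order of the groups was thus ApoeKO, WT, Dscr1KO and double KO, with no overlap between neighbours. Acss2 had the largest fall of the 10 genes in the average, 1.27 ± 0.20 (adjusted p = 0.00284). Acly read 2064.2 and 1700.9 in WT and 2024.6 and 2259.8 in ApoeKO. It was at 1393.3 and 1151.4 in Dscr1KO and at 1129.7 and 1333.2 in double KO. Both null groups lay at about the same level, and Acly fell by 0.68 ± 0.13 (adjusted p = 0.00569).

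Fasn, the enzyme that assembles the chain, read 735.6 and 628.1 in WT and 685.4 and 698.9 in ApoeKO. It was at 638.8 and 610.3 in Dscr1KO and at 433.1 and 668.4 in double KO. Of these arrays, 7 lay close together and 1 double KO array stood below them, so the groups overlap. The averaged difference was -0.24 ± 0.15 and did not pass (adjusted p = 0.257). Without double KO replicate 2, Fasn differed by -0.40 and passed (adjusted p = 0.0409), so its call rests on which double KO array is kept.

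Of the desaturases, Scd1 read 536.4 and 486.9 in WT and 885.2 and 893.9 in ApoeKO. It was at 364.3 and 359 in Dscr1KO and at 365.1 and 428.9 in double KO. Replicates lay close together and ApoeKO stood above the other groups. Scd1 fell by 0.83 ± 0.11 in the average (adjusted p = 0.00125). Scd2 read 6721 and 5404.1 in WT and 7423.5 and 7171.3 in ApoeKO. It was at 4991.2 and 4297.5 in Dscr1KO and at 2144.4 and 3994.8 in double KO. Its null arrays were all lower, but its double KO replicates were far apart, and it fell by 0.85 ± 0.20 (adjusted p = 0.0149). The call for Scd2 was lost without WT replicate 1 (adjusted p = 0.0601), without ApoeKO replicate 1 (adjusted p = 0.0577), without ApoeKO replicate 2 (adjusted p = 0.0557), and without both libraries whose Apoe level or label is in doubt (adjusted p = 0.108).

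Elovl6, the elongase that acts on palmitate, read 1124.5 and 1042.9 in WT and 932.6 and 918.6 in ApoeKO. It was at 631.5 and 537.3 in Dscr1KO and at 275.7 and 509.5 in double KO. It was the only member for which both ApoeKO arrays read below both WT arrays. The null arrays were lower still. Elovl6 fell by 1.09 ± 0.19 in the average (adjusted p = 0.00432), to 0.469 of the level with Dscr1.

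Me1 moved the opposite way from the other members. It read 44.8 and 35.4 in WT and 58.8 and 45.4 in ApoeKO. It was at 274.6 and 436.1 in Dscr1KO and at 378.8 and 399.5 in double KO. All 4 null arrays were several times brighter than any other array of the study. Me1 rose by 2.92 ± 0.18 (adjusted p = 7.41e-05), a 7.56-fold difference on the scale with 3.6 added, by 3.01 ± 0.26 in Dscr1KO against WT and by 2.83 ± 0.26 in double KO against ApoeKO. A separate, dimmer Me1 probe set gave 2.94 in the average (adjusted p = 0.000153 over all probe sets).

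**Figure D2:**
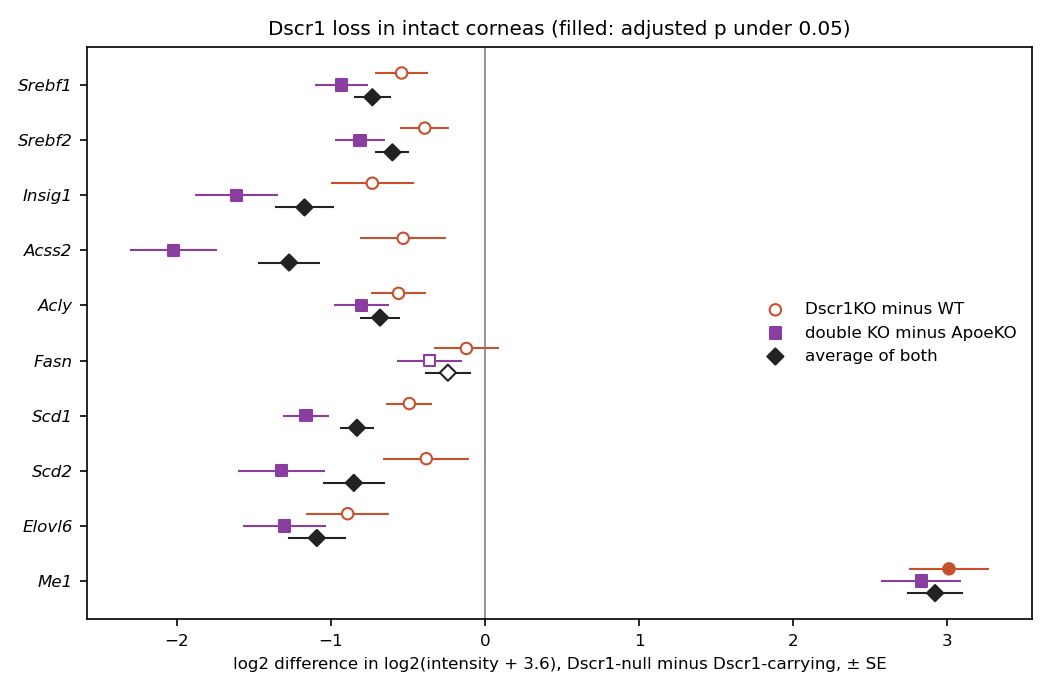
Log2 difference (Dscr1-null minus Dscr1-carrying intact corneas, ± SE) of each gene in Dscr1KO against WT, in double KO against ApoeKO and in their average; filled symbols have an adjusted p under 0.05. For the 9 genes other than Me1 every estimate lies below 0 and is lower in double KO against ApoeKO than in Dscr1KO against WT; Me1 lies at 3.01 and 2.83.

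The separate comparisons differed in how many genes passed. In Dscr1KO against WT, Me1 alone of the 10 genes passed, against 11.7% of all genes (7.78% rose and 3.88% fell), while the other 9 lay below 0, between -0.89 ± 0.27 for Elovl6 (adjusted p = 0.0685) and -0.12 ± 0.21 for Fasn (adjusted p = 0.743). With the Xist level as a covariate, 4 of these 9 turned positive without passing: Acss2 (0.46), Fasn (0.54), Scd2 (0.58) and Elovl6 (0.07). That covariate rests mainly on the double KO pair, the only intact group with arrays both with and without Xist. With each array left out in turn instead, all 9 stayed below 0, and Fasn came nearest to it at -0.01. The count of genes passing moved as well, among the 10 and over all genes. Without a Dscr1KO array that group holds 1 array. In double KO against ApoeKO, 9 of the 10 passed, against 19.5% of all genes (10.9% rose and 8.6% fell): Me1 rose and all others but Fasn fell, led by Acss2 (-2.02 ± 0.28, adjusted p = 0.00387). Fewer of the 10 passed without ApoeKO replicate 1, ApoeKO replicate 2 or double KO replicate 1, each of which leaves 1 array in that group. Over all genes fewer passed as well, and all 10 genes kept their sign. Among the intact arrays with Xist, the double KO group is replicate 1 alone, the array with the photoreceptor signal given below. There Insig1 differed by -1.66 and Acly by -0.92, and fewer of the 10 passed than with all arrays. In double KO against WT, 8 passed, against 20% of all genes (11.3% rose and 8.7% fell); 7 fell and Me1 rose, and Scd1 (-0.37 ± 0.15, adjusted p = 0.126) and Fasn did not pass. That count fell when any 1 WT or double KO array was left out, which leaves 1 array in that group, and the count over all genes fell too. Without both libraries of doubtful Apoe status, the counts were 8 in the average, 1 in Dscr1KO against WT, 7 in double KO against ApoeKO and 6 in double KO against WT. That setting leaves 1 array each in ApoeKO and Dscr1KO. Over all genes fewer passed then, except in double KO against WT, where more did. These comparisons share arrays and are not independent of each other.

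Other probe sets of the same genes gave a check within the arrays. In the average over every probe set, the further probe sets of Srebf2 (-0.52, adjusted p = 0.0339), Elovl6 (-0.90, adjusted p = 0.0095) and Acss2 (-0.91, adjusted p = 0.005) fell with the brightest ones. For Acly, 2 further probe sets fell, by 0.82 and 0.70, and a second Scd2 probe set fell by 1.26 (adjusted p = 0.00281). Dim probe sets of Scd1 (-0.25, adjusted p = 0.574), Scd2 (-0.25, adjusted p = 0.474), Acss2 (0.11, adjusted p = 0.81) and Elovl6 (-0.80, adjusted p = 0.055) did not pass; the highest reading of any of them was 69.1.

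Markers of other cell types moved with Dscr1 in the intact corneas. The 8 markers of cornified, skin-type epithelium summed to 212 to 228.4 in WT and 205.6 to 257.7 in ApoeKO, where Krtdap, Sprr1b, Sprr2d, Rptn and Flg were at or under 10. They summed to 15597.6 to 23625.4 in Dscr1KO and 24679.4 to 26373.6 in double KO, with none of the 8 at or under 10. The 6 conjunctival and goblet cell markers summed to 1674.6 to 2963.9 in WT and ApoeKO and to 14571.7 to 20644.2 in the null groups. The 8 leukocyte markers summed to 427.9 to 1053.5 in WT and ApoeKO and to 13089.7 to 22193.5 in the null groups. S100a8 and S100a9 made up most of the latter sums, reading 9010.6 and 10318.8 in Dscr1KO replicate 2. Of the other leukocyte markers, Ptprc, Tyrobp, Csf1r, Mpeg1 and C1qa rose, while Itgam fell by 0.72 (adjusted p = 0.0155). The 6 blood endothelium markers summed to 96.6 to 119.4 in WT and ApoeKO and to 656.5 to 1136.5 in the null groups. The 4 measured corneal endothelium markers summed to 3132.7 to 3923.1 in WT, 2239.4 to 2453.7 in ApoeKO and 1457.2 to 2587.8 in the null groups. Of these 4, Col8a1 (-2.08, adjusted p = 0.0199), Slc4a11 (-1.47, adjusted p = 0.028) and Col8a2 (-1.11, adjusted p = 0.0409) fell. Car12 rose (5.29, adjusted p = 5.33e-06), so the sum covers opposite changes. The 6 corneal stroma (keratocyte) markers summed to 12655.6 to 18581.9 in WT and ApoeKO and 11414.3 to 13952 in the null groups. Kera (-2.06) and Aldh1a1 (-1.75) fell, Col1a1 (1.66) rose, and Lum, Dcn and Ptgds did not pass. Corneal epithelial markers summed to 29745.1 to 41769.7 in WT and ApoeKO and 33328.9 to 45710.1 in the null groups, but single members moved in opposite directions: Krt14 rose by 2.11 (adjusted p = 0.00106), and Pax6 fell by 1.18 (adjusted p = 0.0135) and Trp63 by 0.56 (adjusted p = 0.0395). Of 6 measured gland markers (sebaceous and meibomian), which summed to 262.7 or less with Dscr1 and to 404.5 to 488.3 without it, Scd3 was at or under 10 in every intact group. Dgat2 made up most of these sums and rose by 0.99 (adjusted p = 0.000865). Elovl3, Mc5r, Krt79 and Far2 read at most 15.2 on any array. The 6 measured fat cell markers summed to 67.8 to 81.6 in WT and ApoeKO, 148.4 to 412.8 in Dscr1KO and 515.8 to 1442.4 in double KO. Of them, Fabp4 rose by 5.14 (35.3-fold, adjusted p = 0.000344), while Adipoq, Cidec and Lep were at or under 10 in every intact group. Photoreceptor markers summed to 3259.8 in double KO replicate 1 and to 261.8 or less in all other arrays. Sag read 1324.4 there against 7.4 in replicate 2, and Gnat1 1200.1 against 4.1. The same array read lowest of all 12 for Srebf2, Insig1, Acss2, Acly, Scd2 and Elovl6. Lens markers summed to 7680.3 to 10100.5 in WT against 2022.2 or less in the other intact groups. The part of these differences in the SREBP results was not tested.

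Sex-linked expression also differed between the intact groups, since both WT arrays lack Xist and both ApoeKO and both Dscr1KO arrays carry it. Among the 5 intact arrays with Xist, all 9 genes other than Me1 were lower in the 3 Dscr1-null arrays than in the 2 ApoeKO arrays, and Me1 was higher. The differences there were -1.55 for Acss2, -1.30 for Insig1, -1.29 for Scd1 and 2.70 for Me1. Among the 3 intact arrays without Xist, double KO replicate 2 read below both WT arrays for 8 genes, between them for Fasn and above them for Me1 (3.21). The latter set holds 1 null array. The share of all genes that separate in sets this small was not counted, and smaller sets separate more easily than 4 against 4. These orders are therefore a description only. Only the double KO group holds arrays with and without Xist (4256.9 and 19.6), so a fit with Xist as a covariate rests mainly on that pair. Double KO replicate 1 also carries the photoreceptor signal, so the covariate cannot separate Xist from what else differs within the pair. With the Xist level as a covariate, the average kept its direction for all 10 genes and its 9 calls, and double KO against ApoeKO also kept 9. In Dscr1KO against WT, where WT lacks Xist and Dscr1KO carries it, the covariate turned Acss2, Fasn, Scd2 and Elovl6 positive, and Me1 alone passed (3.03 ± 0.50, adjusted p = 0.0431). In double KO against WT the calls for Srebf2, Insig1, Acly and Scd2 were lost with it.

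Loss of Apoe alone was compared next, to see whether a lipoprotein defect without Dscr1 loss moves the same genes. In ApoeKO against WT, 0 of the 10 genes passed by limma, against 0.0236% of all genes, and 1 of 10 had an unadjusted p under 0.05, against 3.75% of all genes. That gene was Scd1, which read higher in both ApoeKO arrays than in either WT array (0.80 ± 0.15, adjusted p = 0.328, range over the alternatives 0.00893 to 1). It passed only when the 4 arrays of these groups were fitted alone, where 203 of all genes passed, against 3 in the main fit. The main fit shares its spread with groups whose replicates differ more. More than 2-fold differences between replicates numbered 210 genes in WT and 372 in ApoeKO, against 1633 in Dscr1KO and 1131 in double KO. That 0 of the 10 passed in the main fit is therefore not a sign of no difference. Of the others, Acss2 differed by 0.57 ± 0.28, Insig1 by 0.39 ± 0.27 and Elovl6 by -0.23 ± 0.27, all with an adjusted p of 1. Both WT arrays lack Xist and both ApoeKO arrays carry it, so genotype and Xist cannot be told apart in this comparison. With the Xist level as a covariate, which rests mainly on the double KO pair, Elovl6 was above 0 instead, at 0.73 ± 0.26. Acss2 was then at 1.55 ± 0.30, Scd2 at 1.24 ± 0.33 and Fasn at 0.69 ± 0.27. By limma, 0 of the 10 passed with it (adjusted p = 0.456 for Elovl6). The library labelled ApoeKO replicate 1, whose Apoe reading is that of a carrier, read 885.2 for Scd1 and 1799.1 for Insig1, beside 893.9 and 1859.3 in replicate 2.

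In double KO against Dscr1KO, 0 of the 10 genes passed by limma, against 0.0236% of all genes, with 4 at an unadjusted p under 0.05 (10.7% of all genes): Acss2 (-0.92 ± 0.28, adjusted p = 0.373), Srebf2 (-0.40 ± 0.16), Scd2 (-0.66 ± 0.28) and Elovl6 (-0.63 ± 0.27), each of the last 3 with an adjusted p of 0.463. Without Dscr1KO replicate 2, Insig1 passed (-0.95, adjusted p = 0.0349), but the Dscr1KO group is then the single array that reads 1157.8, with its spread taken from the other groups. The interaction, which asks whether the Dscr1 difference depends on Apoe, was below 0 for all 10 genes with a median of -0.41, but 0 passed by limma, against 0.00787% of all genes. At an unadjusted p under 0.05 there were 3 (7.58% of all genes): Acss2 (-1.49 ± 0.40, adjusted p = 0.531), Scd1 (-0.67 ± 0.21, adjusted p = 0.582) and Scd2 (-0.94 ± 0.40, adjusted p = 0.652). Without Dscr1KO replicate 2, Insig1 passed the interaction test (-1.34, adjusted p = 0.0414), again with that array alone in its group. With all 8 arrays, the larger falls in double KO against ApoeKO than in Dscr1KO against WT did not pass a test of their difference.

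Suturing, a model of corneal injury that draws in leukocytes and vessels, was compared in WT, with days 5 and 7 taken as 1 group. Of the 10 genes, 0 passed by limma, against 1.57% of all genes (1.46% rose and 0.118% fell), and 2 had an unadjusted p under 0.05 (14.6% of all genes): Elovl6 (-0.75 ± 0.26, adjusted p = 0.211) and Srebf1 (-0.53 ± 0.17, adjusted p = 0.173). Srebf1 read 614.3 on day 5 and 503.8 on day 7, below both intact WT arrays. Elovl6 read 570.7 on day 5 and 726.8 on day 7, also below both. Scd1 was the most different between the days, at 910.3 on day 5 and 424.1 on day 7, above and below the intact readings, and 9 of the 10 genes were lower on day 7. Past a size of 1 on the log2 scale was Scd1 alone (-1.10), against 5.25% of all genes (3.26% higher and 1.99% lower); each day has 1 array, so there is no replicate check.

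**Figure D3:**
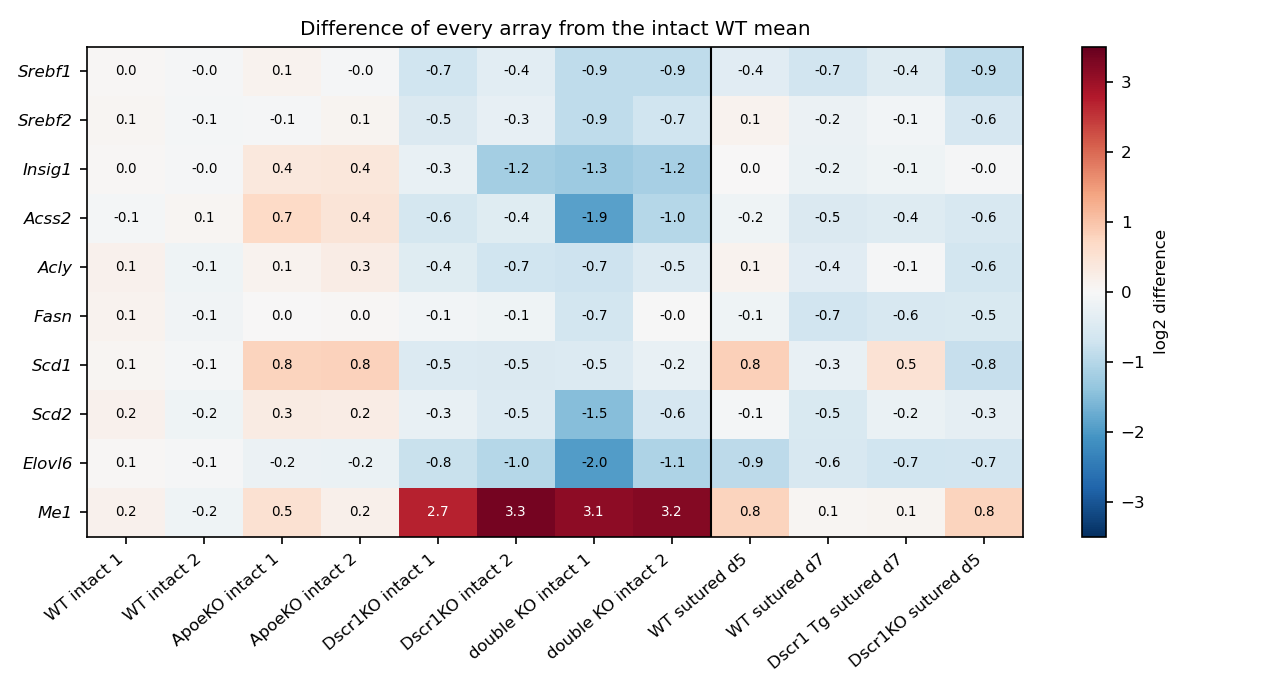
Log2 difference of every array from the mean of both intact WT arrays for each gene (rows); columns are the 12 arrays, intact to the left of the line, with blue below and red above WT. Me1 is red in the 4 intact Dscr1-null columns (2.68 to 3.34) and between -0.16 and 0.79 in all other columns, and the sutured Dscr1KO column shows blue for Scd1 (-0.82) with Me1 at 0.77.

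In sutured Dscr1KO on day 5 the pattern of the intact null corneas was present for some genes and absent for others. Scd1 read 288.6 against 910.3 in sutured WT on day 5 (-1.65), Acly 1202.1 against 2043.7 (-0.76), Srebf2 381.4 against 627.7 (-0.71) and Srebf1 431.2 against 614.3 (-0.51). Insig1 was at 1357.8 against 1403.4, Elovl6 at 685.4 against 570.7 (0.26) and Me1 at 70.5 against 71.6. Of the 10 genes, 9 were below sutured WT and Elovl6 was above it, with a median of -0.39 against 0.05 over all genes. Only Scd1 passed a size of 1, against 6.06% of all genes (4.11% higher and 1.94% lower), and the single arrays allow no test. For scale, sutured WT on day 7 differed from day 5 by -1.10 for Scd1, -0.52 for Acly, -0.34 for Srebf2 and -0.28 for Srebf1. The WT array of day 5 was above both intact WT arrays for Scd1. The 8 cornified epithelium markers summed to 258.2 in this cornea, with Lor, Krtdap, Sprr2d, Rptn and Flg at or under 10; the 8 leukocyte markers summed to 4250.8, and Xist read 6.

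Me1 therefore differed by genotype in intact corneas and read alike in the sutured pair. A comparison added after the Me1 values were seen set the Dscr1KO effect in sutured corneas against that in intact ones, and is therefore a description rather than independent evidence. It takes sutured WT of days 5 and 7 as 1 group, and the lone sutured Dscr1KO array is assumed to vary like the other groups. Of the 10 genes, Me1 alone passed (-2.67 ± 0.48, adjusted p = 0.0418), against 1.02% of all genes (0.126% with a positive and 0.897% with a negative difference). Against sutured WT of day 5 alone, the same-day array, it was -3.03 (adjusted p = 0.0339). The estimate lay between -3.03 and -2.31 in 20 alternatives, and its adjusted p between 0.00655 and 0.181. It did not pass in 13 of them, among which were those without WT replicate 1 (adjusted p = 0.123), WT replicate 2 (0.181), ApoeKO replicate 1 (0.0688), ApoeKO replicate 2 (0.0687), Dscr1KO replicate 2 (0.057), double KO replicate 1 (0.0589), double KO replicate 2 (0.0584) or sutured WT on day 5 (0.088). Insig1 (0.80 ± 0.41, adjusted p = 0.357) and Elovl6 (0.98 ± 0.41, adjusted p = 0.289) did not pass. Without Dscr1KO replicate 1, which leaves replicate 2 alone in that intact group, the difference for Insig1 was 1.27.

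In the library labelled Dscr1 Tg on day 7, Rcan1 read 548.3 against 579.7 in sutured WT of that day, so the transgene was not seen as a higher reading on this probe set. Of the 10 genes, 9 read above sutured WT of the same day and Elovl6 read below it (671.4 against 726.8). The differences were small: Scd1 read 725.6 against 424.1 (0.77), Acly 1806 against 1427.5 (0.34), Scd2 5129.2 against 4159.1 (0.30) and Srebf1 594.2 against 503.8 (0.24). Their median was 0.12, against -0.07 over all genes, and 0 of the 10 passed a size of 1, against 4.21% of all genes (0.755% higher and 3.45% lower). Me1 read 43 against 41.9. With 1 array of each, these values have no replicate check.

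Genes around the pathway were followed in the averaged Dscr1 comparison. Of 22 SREBP regulators and other lipogenic genes, 16 were tested; 3 fell and 1 rose, with a median of 0. The falls were led by Fads2 (-1.55 ± 0.22, adjusted p = 0.00181) and Fads1 (-1.49 ± 0.26, adjusted p = 0.00462), the desaturases of polyunsaturated fatty acids, which also fell in Dscr1KO against WT (adjusted p = 0.0433 and 0.0471). Scap, the escort of SREBPs, rose by 0.68 ± 0.12 (adjusted p = 0.00558), in the opposite direction to Srebf1, Srebf2 and Insig1. Of 20 sterol synthesis genes, 17 were tested; 7 fell and 0 rose, with a median of -0.40, led by Tm7sf2 (-0.85 ± 0.11), Sc5d (-0.83 ± 0.15) and Nsdhl (-0.77 ± 0.14). All of these are read against the 15.3% of all genes that fell and the 16.2% that rose. The lists, like those set beside Me1 below, were chosen with earlier results of these data known.

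Me1 was also set beside genes that share its product or its known regulator NRF2, the oxidative stress factor. Of 6 other NADPH-producing enzymes, 5 were tested: Idh1 rose by 0.35 ± 0.11 (adjusted p = 0.0388) and Me3, a mitochondrial malic enzyme, fell by 1.81 ± 0.39 (adjusted p = 0.011). Of 9 NRF2 target genes, 5 rose and 0 fell, with a median of 0.93, against 16.2% of all genes that rose and 15.3% that fell. Gclc (0.88), Txnrd1 (0.27), Gsta4 (-0.02) and Nqo1 (-0.10) did not pass. The rises were led by Gpx2, an epithelial glutathione peroxidase (5.40 ± 0.17, adjusted p = 2.71e-06), Slc7a11, the cystine transporter (2.65 ± 0.38, adjusted p = 0.00203), and Hmox1, haem oxygenase (2.22 ± 0.28, adjusted p = 0.00117). The cornified epithelium and leukocyte sums given above differed between the same groups, and the part of those cells was not tested.

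**Figure D4:**
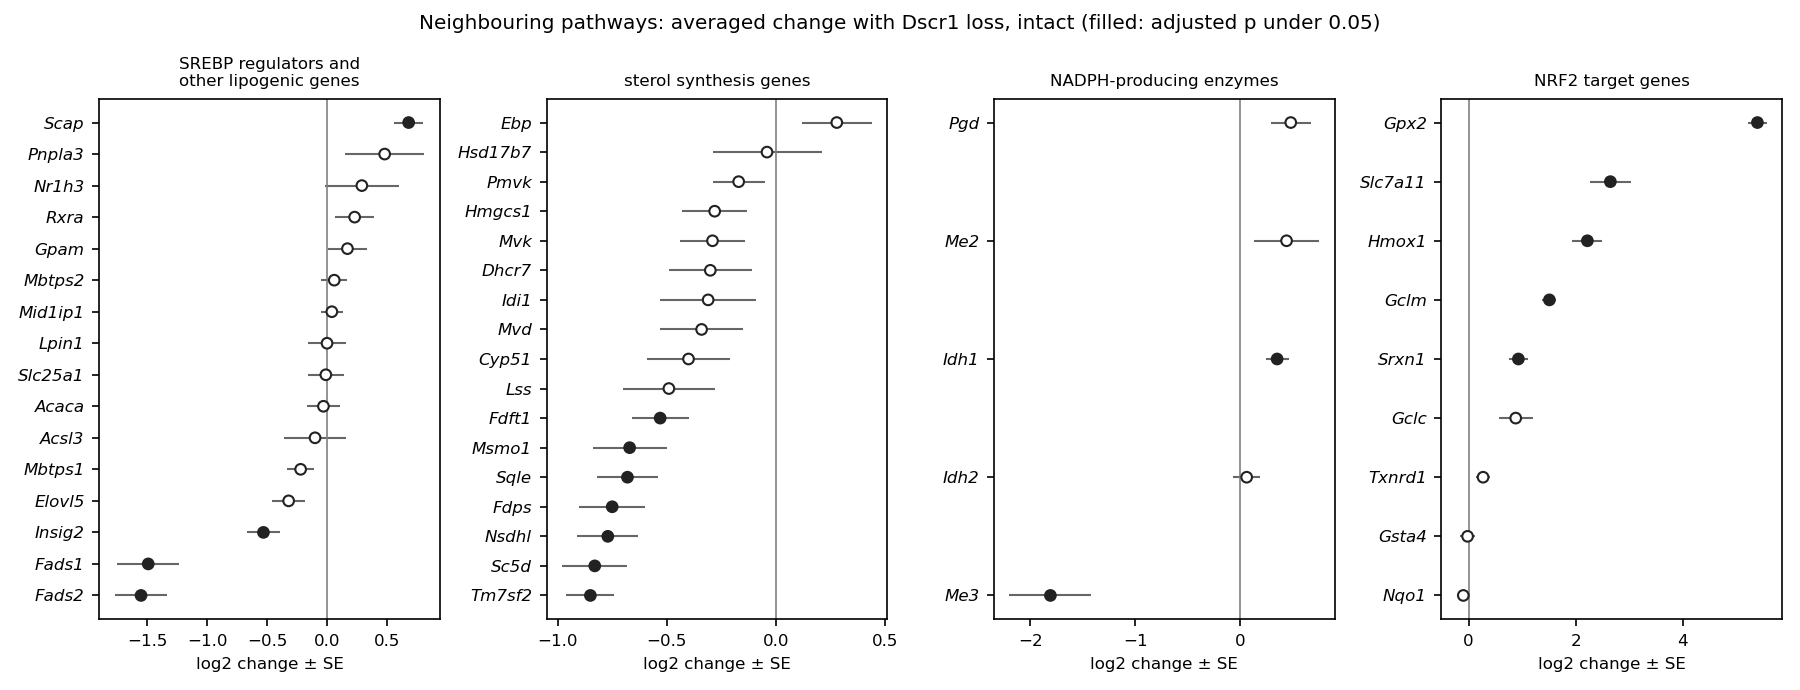
Averaged log2 change with Dscr1 loss in intact corneas (± SE) for the tested genes of 4 lists: SREBP regulators and other lipogenic genes, sterol synthesis genes, other NADPH-producing enzymes and NRF2 target genes; filled points have an adjusted p under 0.05. Fads1 and Fads2 lie near -1.5, 16 of 17 sterol synthesis genes lie below 0, and Gpx2 lies at 5.40.

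Across all 12 arrays, the genes whose log2 values followed each member most closely were listed as a description, since the arrays fall into separate groups and every pair shares the same libraries. Acly was followed most closely by Fdps (Pearson r = 0.973) and Msmo1 (0.949), both enzymes of sterol synthesis. Scd1 was closest to Stard4, a sterol carrier (0.95), Elovl6 to G3bp1 (0.985), and Acss2 and Scd2 both to Snx12 (0.969 and 0.961). Me1 was closest to Sprr3, a cornified envelope protein (0.988), and to Elovl4, an elongase of very long fatty acids (0.984), among 204 genes with an r of at least 0.9. Insig1 had 325 such genes and Fasn 1.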

How the data were processed

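RNA of whole corneas was measured on 12 arrays. Per the labels' protocols, biotinylated cRNA was made from total RNA. The deposited values are linear probe-set intensities. The authors had scaled them: with 2% trimmed from both tails, every array averages 100, by software not given in the sources used here. Gene symbols came from the platform table: 34958 probe sets carry 1 symbol, 932 several and 9211 none. For each gene the probe set with the highest mean log2 value was used. A pseudocount of 3.6 (20th percentile of the deposited intensities) was added before taking log2. Genes at or above the 40th percentile of mean log2 were tested (12711, with Rcan1 and Apoe kept), and all 10 members passed this filter.

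The 8 intact arrays entered 1 model with a coefficient per group (limma 3.58.1, R 4.3.3, trend on), and p-values were adjusted by Benjamini-Hochberg per comparison, with a threshold of 0.05. Suturing in WT was fitted with 2 further arrays, and the sutured against intact Dscr1 effect, added later, in 11. Single-array pairs were compared without a test. The fit was tested on simulated data. P-values set each difference against a spread between arrays of a group that is estimated jointly over the groups of a fit. Sutured WT adds its difference between days to that spread, and the lone sutured Dscr1KO array adds nothing to it. The members and gene lists were chosen with earlier results of these data known. Of each list, up to 3 genes past the threshold with the largest averaged change are named, and for each member the 2 genes of highest Pearson r were eligible; Acaca, the NRF2 targets that did not pass and single cell type markers are named beyond this rule, after their values were seen. Alternatives were the 60th percentile filter or none, quantile normalization, pseudocounts of 0.6 and 10.2, a fit of the compared groups alone, no trend, a replicate block, no libraries of doubtful Apoe status, Xist as a covariate, every probe set, and each array left out. Figures used matplotlib 3.10.9 in python 3.11.15.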

Additional observations from a re-analysis of the deposited data

Results flagged for a closer look

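Within the 4 intact Dscr1-null arrays, Insig1 read 1157.8 in Dscr1KO replicate 1, far above the other 3 arrays, which lay between 575 and 618.5. Scd1 read 428.9 in double KO replicate 2, apart from the other null arrays between 359 and 365.1. These are 2 of 20 sets of 4 arrays examined for a sample far from the others, and chance alone sets apart about 1 in 20 such sets. The Dscr1KO difference of Me1 was 2.67 lower on the log2 scale in sutured than in intact corneas (-2.67, adjusted p = 0.0418 by limma), in a comparison added after the values were seen, with 1 sutured Dscr1KO array. It did not pass in 13 of 20 alternatives.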

How the results depend on the processing

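For Dscr1 loss averaged over both Apoe groups, the number of members called was between 8 and 10 under all 18 alternatives, and 8 of the 9 called members (all but Scd2) passed in each of them; all 10 members kept their sign. For Dscr1KO against WT (1 member called), the count was 2 with quantile normalization and 3 with every probe set, and 1 to 4 when 1 array was left out. For double KO against ApoeKO (9), it was 5 among the 5 intact arrays with Xist, an alternative added after the data were seen, and 3 to 10 with 1 array left out. For double KO against WT (8), it was 4 with the Xist level as a covariate and 1 to 8 with 1 array left out. For ApoeKO against WT (0), it was 1 with only the groups compared. For double KO against Dscr1KO and for the interaction (0 each), it was 0 to 1 with 1 array left out, and for sutured WT against intact WT it was 0 under all 21 alternatives. For the difference in the Dscr1 effect between sutured and intact corneas (1), it was 0 with quantile normalization, no intensity trend, only the groups compared, without both doubtful libraries and with Xist as a covariate, and 0 to 2 with 1 array left out; leaving out the sutured Dscr1KO array gives no value. No called member reversed, but with the Xist covariate Acss2, Fasn, Scd2 and Elovl6, none of them called, turned positive in Dscr1KO against WT (0.46, 0.54, 0.58 and 0.07), as did Fasn in double KO against WT (0.02). In ApoeKO against WT, Elovl6 turned positive (0.73) and Srebf1 negative (-0.01), neither of them called. In the added sutured comparison, Acss2 (-0.74), Fasn (-0.66), Scd2 (-0.63), Acly (-0.19) and Elovl6 (-0.03) turned negative, none of them called. The Xist covariate rests mainly on the double KO pair, the only intact group with both Xist states. The causes were not tested. Counts over all genes moved too: 1482 (263 to 3849) for Dscr1KO against WT, 2476 (516 to 3918) for double KO against ApoeKO, 4003 (2150 to 5959) for the average, 2536 (691 to 3956) for double KO against WT, 3 (0 to 203) for ApoeKO against WT, 3 (0 to 107) for double KO against Dscr1KO, 1 (0 to 50) for the interaction, 200 (0 to 583) for suturing and 130 (27 to 1923) for the added test. Same-numbered intact replicates share only a number: their deviations correlated between -0.05 and 0.07 over 6 pairs of groups, and with the replicate block the average still called 9 members, double KO against ApoeKO 9, double KO against WT 6 (8 without it) and Dscr1KO against WT 1. Among the 5 intact arrays with Xist, double KO is replicate 1 alone, and with 1 array left out a group can hold 1 array. Few arrays limit the precision throughout.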
